A study of Macaca mulatta with 24 samples.

Results

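The cytotoxic granule genes are the genes for the proteins that killer lymphocytes store in secretory granules and release onto a target cell. Of 10 such genes listed (GZMA, GZMB, GZMH, GZMK, GZMM, PRF1, GNLY, NKG7, CTSW and CST7), 7 had at least 1 probe under their own symbol on the array, so that 7 of the 16102 named genes and 10 of the 43603 probes on the array were members. GZMA, GZMK, PRF1, CTSW and CST7 had 1 probe each, GZMB had 2 and NKG7 had 3. GZMH and GNLY had no probe under their symbols, and 2 probes that match GZMM only through a gene number are described apart from the 10. The 10 member probes passed the filter on low signal, as did 38220 probes of the array.

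Cytotoxic T lymphocytes and natural killer (NK) cells load their granules with perforin, which opens pores in the membrane of a target, and with granzymes, serine proteases that pass into the target and cut its proteins. Cathepsins trim granzymes to their active form inside the granule, and cystatins hold cathepsins in check. In the colon, lymphocytes of this kind lie in the lamina propria and, as intraepithelial lymphocytes, between the epithelial cells of the crypts and surface. Lymphocytes are among the most radiosensitive cells of the body.

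Colon was taken from 24 young-adult male rhesus macaques after total-body irradiation (TBI), a single uniform gamma-ray dose from a cobalt source, or after sham irradiation. The groups were 4 unirradiated controls, 4 animals each on days 4 and 7 after 6.7-Gy and after 7.4-Gy TBI, and 2 animals on day 12 after each dose. Each animal gave 1 single-colour array of RNA from whole gut wall, a mixture of epithelium, stroma, muscle and immune cells. The controls carry the label of day 4 and served every day, so each comparison with control below shares the same 4 animals; a protocol text gives day 21 as the last day, and the day 12 of the sample labels was followed. The labels give no other treatment and no strain or genotype. In such bulk tissue, fewer cytotoxic cells and less RNA per cell cannot be told apart.

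The share of probes well above background ran from 66.7% to 85.0% per array, and 0 spots were saturated. The epithelial markers EPCAM, KRT20, VIL1, CDX1, CDX2, LGALS4 and MUC2 were well above background on 24 of 24 arrays. So were CD3D, CD3E, CD3G, CD8A and KLRD1 of T and NK cells. CA1 and SLC26A3 of the epithelium were so on 19 and 22 of 24 arrays. No array of another gut segment was compared, so these markers bear out intestine and not colon in particular. The slides carry 4 array positions, and position follows group: controls were on position 1, the 7.4-Gy day-4 arrays on position 2, day-7 arrays on positions 3 and 4, and day-12 arrays on position 4. No day-7 or day-12 array shares a position with a control, so position and these groups cannot be told apart. Control replicate 2 had the highest level among the controls on 9 of the 9 member probes measured on every array, and it is named beside the member calls that rest on it. Levels are log2 signals relative to the 75th percentile of their own array, so 0 is the signal of that percentile, and a level is compared between groups only within a probe.

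Of the 10 member probes, that of GZMK had the largest difference from control in a single group. GZMK encodes granzyme K, a protease typical of memory CD8 T cells and of a class of NK cells. The 4 controls measured -2.52, -1.17, -2.09 and -1.63 on the log2 scale. On day 7 after 6.7-Gy TBI the levels were -4.47, -3.44, -5.84 and -4.49, and the level of -5.84 was not well above background. Each of these 4 animals lay below the lowest control. At 7.4 Gy on day 7 the levels were -2.28, -3.69, -4.31 and -4.93, and 3 of the 4 lay below every control while replicate 1 lay inside the control range. The mean level went from -1.85 ± 0.580 in control (SD, n = 4) to -4.56 ± 0.986 (SD, n = 4) and -3.80 ± 1.14 (SD, n = 4) on day 7 after the lower and the higher dose.

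GZMK fell 6.53-fold on day 7 after 6.7-Gy TBI, a log2 difference of -2.71 (SE 0.575, 95% interval -3.91 to -1.51, limma adjusted p = 0.0462). The 7.4-Gy difference on day 7 was -1.95 (interval -3.15 to -0.75), but its adjusted p of 0.153 in limma did not reach the threshold. With both doses averaged, day 7 was 5.02-fold below control (log2 difference -2.33, SE 0.498, limma adjusted p = 0.0228), and 7 of 8 animals lay below every control. Earlier, on day 4, the levels were -2.22, -2.52, -1.72 and -2.72 after 6.7 Gy and -2.02, -2.87, -2.83 and -4.33 after 7.4 Gy. At the lower dose these overlapped the controls almost wholly, and at the higher dose 3 of 4 animals lay below every control; the differences were -0.44 (limma adjusted p = 0.679) and -1.16 (interval -2.36 to 0.04, limma adjusted p = 0.163). From day 4 to day 7, over both doses, GZMK fell by 1.53 on the log2 scale (SE 0.407, interval -2.38 to -0.68, limma adjusted p = 0.00982). On day 12 the levels were -2.03 and -2.44 after 6.7 Gy, inside the control range, and -3.76 and -2.04 after 7.4 Gy, of which 1 lay below it. The day-12 differences from control were -0.38 and -1.05 (limma adjusted p = 0.954 and 0.843), and day 12 was above day 7 by 1.61 (interval 0.57 to 2.65), with an adjusted p of 0.248 in limma. From high to low, the mean levels ran control, 6.7 Gy day 12, 6.7 Gy day 4, 7.4 Gy day 12, 7.4 Gy day 4, 7.4 Gy day 7 and 6.7 Gy day 7, and each group's range overlapped that of its neighbour in this order.

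The GZMK calls against control were lost without single animals. Without control replicate 2, the difference on day 7 after 6.7 Gy was -2.48 with a limma adjusted p of 0.136, and that of both doses was -2.10 with 0.0913. Without control replicate 3 the adjusted p of these 2 differences was 0.0844 and 0.0533, without control replicate 4 it was 0.127 and 0.0867, and leaving out 6.7-Gy day-7 replicate 1, 3 or 4 gave differences of -2.74, -2.28 and -2.73 with adjusted p of 0.131, 0.167 and 0.118 at that dose. Among 38 alternatives the 6.7-Gy call was lost in 20. These included runs without single animals of groups outside the comparison, where the difference stayed at -2.71 with limma adjusted p between 0.0539 and 0.0601. Over the alternatives the 6.7-Gy difference ran from -3.08 to -1.35 and that of both doses from -2.58 to -1.18. The GZMK signal was dim on day 7, with median intensities of 33.8 and 46.4 against 196 in control. The size of the fall thus depends on the processing. The fall from day 4 to day 7 was called whichever animal was left out, and it was lost in 1 of 38 alternatives, normexp background correction, at -0.61. Those alternatives hold no position block, which could not be fitted here, so this fall and array position cannot be told apart. The arrays were scanned in 2 sets, and the control-to-day-7 difference at 6.7 Gy was -2.11 and -3.31 within them, against -2.77 and -1.12 at 7.4 Gy.

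CST7, the gene for cystatin F, an inhibitor of the cathepsins that process granzymes, had its lowest group mean on day 7 at each dose. The controls measured 0.31, 1.65, 0.83 and 1.03. On day 7 the levels were -0.76, 0.20, -1.27 and -0.93 after 6.7-Gy TBI and -0.01, 0.63, -0.26 and -0.48 after 7.4-Gy TBI. After the lower dose 4 of 4 animals were below every control, and after the higher dose 3 of 4. CST7 fell 3.13-fold on day 7 after 6.7 Gy (log2 difference -1.64, SE 0.312, interval -2.30 to -0.99, limma adjusted p = 0.0271) and 2.49-fold with both doses averaged (log2 difference -1.31, SE 0.270, limma adjusted p = 0.0185), while the 7.4-Gy difference of -0.98 (interval -1.64 to -0.33) had an adjusted p of 0.193 in limma.

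On day 4 the CST7 levels were 0.70, 0.71, 0.94 and 0.22 after 6.7 Gy, mostly inside the control range, and 0.14, 0.21, 0.84 and 0.12 after 7.4 Gy, of which 3 were below it. These differences of -0.31 and -0.63 did not pass the test (limma adjusted p = 0.569 and 0.162). Day 7 was lower than day 4 by 0.84 on the log2 scale over both doses (limma adjusted p = 0.00879), short of a 2-fold change. The day-12 levels were 0.04 and -0.15 after 6.7 Gy, both below the controls, and 0.67 and 0.18 after 7.4 Gy, with differences of -1.01 and -0.53 (limma adjusted p = 0.589 and 0.859). Without control replicate 2 the day-7 differences were -1.41 (adjusted p = 0.109) at 6.7 Gy and -1.08 (adjusted p = 0.0845) over both doses. Without control replicate 3 the 6.7-Gy difference was -1.69 (adjusted p = 0.0525), and without control replicate 4 the pair of differences had adjusted p of 0.0808 and 0.0698. At 6.7 Gy the call was also lost without day-7 replicate 1, 3 or 4, with adjusted p of 0.0943, 0.114 and 0.0946 in limma.

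CTSW, the gene for cathepsin W, a protease of CD8 T cells and NK cells, was called on day 4. The controls measured -3.75, -2.87, -4.39 and -3.17. On day 4 after 7.4 Gy the levels were -6.23, -4.74, -4.03 and -4.70, so that 3 of 4 animals lay below every control. CTSW fell 2.6-fold there (log2 difference -1.38, SE 0.381, interval -2.18 to -0.58, limma adjusted p = 0.0157). After 6.7 Gy the day-4 levels of -4.23, -4.32, -4.08 and -4.51 sat at the low end of the control range in 3 animals and below it in replicate 4, with a difference of -0.74 (limma adjusted p = 0.230), and both doses averaged gave a 2.08-fold fall (log2 difference -1.06, SE 0.330, limma adjusted p = 0.0274).

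On day 7 the CTSW levels were -4.69, -5.00, -5.10 and -4.97 after 6.7 Gy and -4.86, -5.23, -4.40 and -5.59 after 7.4 Gy. In these 8 animals every level was under the lowest control, the nearest by about the second decimal (-4.40 against -4.39). Both doses averaged were 2.7-fold below control (log2 difference -1.43, SE 0.330, limma adjusted p = 0.0338), whereas the single doses, at -1.39 and -1.47, had adjusted p of 0.130 and 0.0977 in limma. These single-dose differences were no smaller than the one called on day 4 after 7.4 Gy. The adjustment was made within each comparison, and 3.68% of all probes were called lower there, against 0.222% and 0.259% on day 7. The order of the calls thus does not date the fall of CTSW. On day 12 the levels were -5.34 and -4.78 after 6.7 Gy and -4.49 and -5.38 after 7.4 Gy, again below every control in 4 of 4 animals, with a mean difference of -1.45 that did not pass the test (limma adjusted p = 0.222). The probe is dim: it was well above background on 4 of 4 control arrays and 4 of 4 at 6.7 Gy on day 4, on 3 of 4 at 7.4 Gy on day 4, and on 2 of 4 in each day-7 group and 1 of 2 in each day-12 group, so the low levels are near the floor of the measurement.

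The CTSW calls on day 4 rested in part on 7.4-Gy day-4 replicate 1, at -6.23: without it the difference was -0.95 (limma adjusted p = 0.0628) at that dose and -0.84 (adjusted p = 0.0366), short of 2-fold, over both. Without control replicate 2 the values were -1.15 (adjusted p = 0.0538) and -0.83 (adjusted p = 0.109) on day 4 and -1.21 (adjusted p = 0.131) on day 7. Without control replicate 4, the averaged doses gave -0.94 (adjusted p = 0.0916) on day 4 and -1.31 (adjusted p = 0.133) on day 7, and without control replicate 1 the day-7 value was -1.50 (adjusted p = 0.0584). The day-7 call was lost in 14 of 38 alternatives, also without any 1 of the 6.7-Gy day-7 animals or without 7.4-Gy day-7 replicate 2 or 4, where it lay between -1.47 and -1.34 with limma adjusted p from 0.0502 to 0.0693. With array position as a block, the day-4 difference was -1.36 (limma adjusted p = 0.240) at 7.4 Gy and -1.05 (adjusted p = 0.242) over both doses. These differences are close to those without the block, and the adjusted p rose. Only the 6.7-Gy day-4 arrays, which lie on the positions of both other groups, let this block be fitted.

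**Figure D1:**
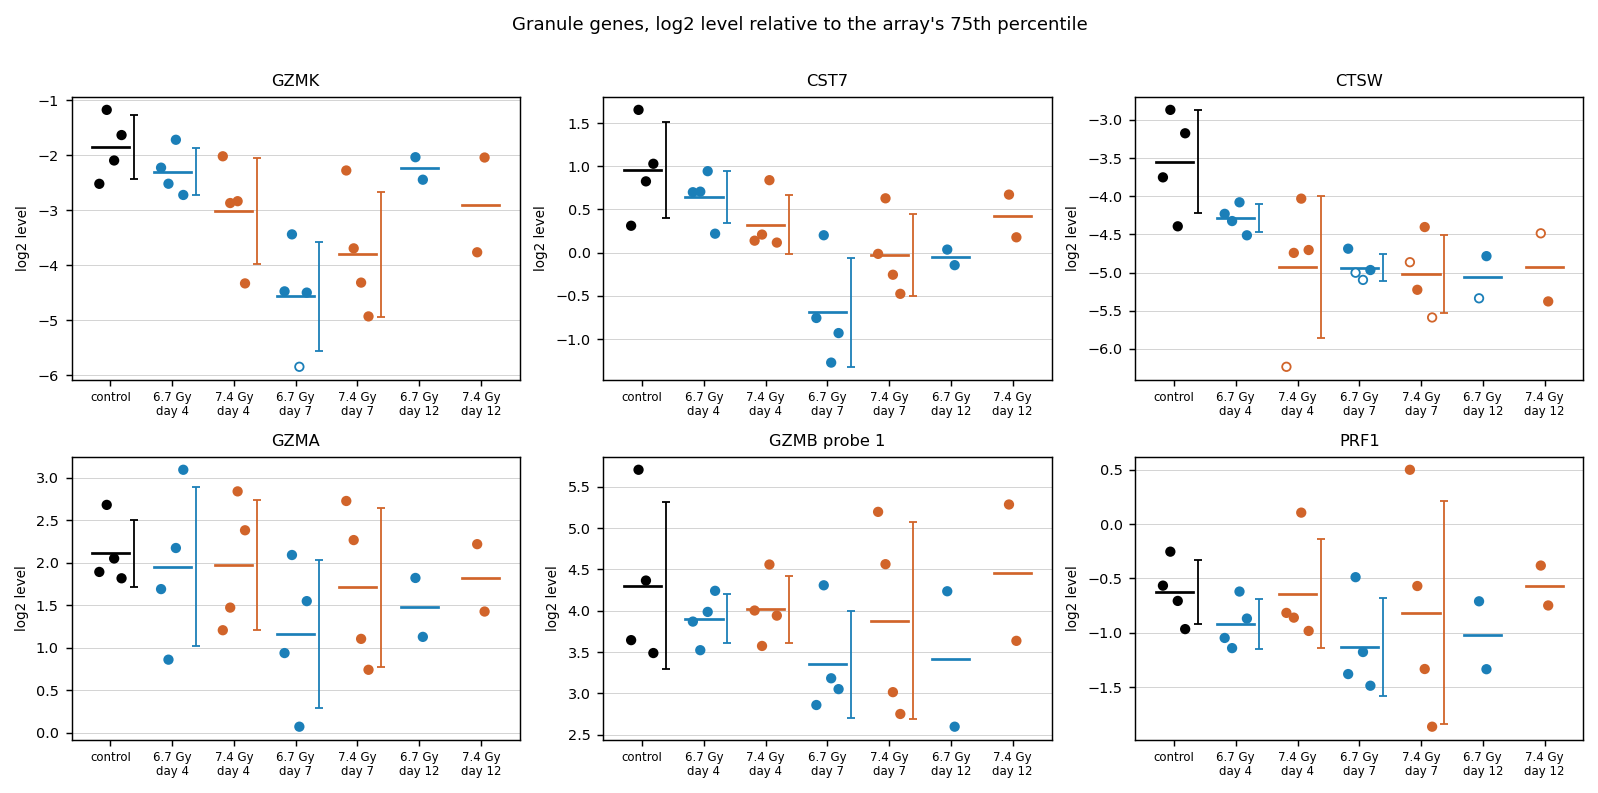
Log2 level relative to the 75th percentile of the array (y axis) by group (x axis) for 6 of the 10 member probes, with 1 dot per animal (filled where the probe was well above background, open where it was not), a line at the group mean and a bar for the SD in groups of 4. GZMK and CST7 are lowest on day 7 after 6.7 Gy, CTSW lies below its controls from day 7 on, and the groups of GZMA, GZMB and PRF1 overlap their controls.

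GZMA and GZMB, the genes for granzymes A and B, major stored proteases of cytotoxic granules, did not pass the test in any comparison. GZMA measured 1.89, 2.68, 2.05 and 1.82 in control. It measured 0.94, 2.09, 0.07 and 1.55 on day 7 after 6.7 Gy and 2.72, 2.26, 1.1 and 0.74 after 7.4 Gy. Both day-7 groups overlapped the controls, and replicate 1 after the higher dose lay above every control. The day-7 differences were -0.95 and -0.40 (limma adjusted p = 0.593 and 0.840), and both doses averaged gave -0.67 (interval -1.61 to 0.26, adjusted p = 0.561). On day 4 the levels of GZMA ran from 0.86 to 3.09 after 6.7 Gy and from 1.20 to 2.84 after 7.4 Gy, and the differences were -0.16 and -0.14 (adjusted p = 0.886 and 0.884 in limma). On day 12 they were 1.82 and 1.13 after 6.7 Gy and 2.22 and 1.42 after 7.4 Gy.

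For GZMB the first probe measured 3.64, 5.70, 4.36 and 3.49 in control, 2.86, 4.31, 3.18 and 3.05 on day 7 after 6.7 Gy and 5.20, 4.56, 3.02 and 2.75 after 7.4 Gy. The controls themselves spanned a 4.65-fold range, and the 7.4-Gy day-7 animals a 5.44-fold range. The differences on day 7 were -0.95 and -0.42 (limma adjusted p = 0.629 and 0.846), and over both doses -0.68 (interval -1.70 to 0.33). The second GZMB probe, on the same scale, gave -1.03 and -0.52 on day 7 (limma adjusted p = 0.571 for the first). The 2 probes tracked each other closely, with a Pearson correlation of 0.96 between their deviations from the group means over 24 animals. On day 4 the first probe ran from 3.52 to 4.24 and from 3.57 to 4.56 after the lower and higher dose, and on day 12 it measured 4.24 and 2.60 after 6.7 Gy and 5.28 and 3.64 after 7.4 Gy.

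GZMK and GZMA are neighbours in the macaque genome, with no coding gene between them in RefSeq. As a description chosen after their values were seen, the day-7 change of GZMK exceeded that of GZMA by 1.65 on the log2 scale, since the GZMK level less the GZMA level had a day-7 minus control difference of -1.65, and in 8 of 8 day-7 animals this quantity was below that of each control. No share over other pairs of genes stands beside this count, and no day-7 array shares a position with a control. Over the alternatives the GZMK difference of both doses on day 7 ran from -2.58 to -1.18. The GZMK signal was dim on day 7, and that of GZMA was not. Across the 24 animals, the deviations of GZMK and GZMA from their group means correlated at 0.35.

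PRF1, the gene for perforin, measured -0.57, -0.25, -0.71 and -0.97 in control. On day 7 it measured -1.38, -0.49, -1.18 and -1.49 after 6.7 Gy, where 3 of 4 animals were below every control, and 0.50, -0.57, -1.33 and -1.86 after 7.4 Gy, where 2 lay below, 1 inside and 1 above the control range. The differences were -0.51 and -0.19 (limma adjusted p = 0.721 and 0.906). Over both doses the difference was -0.35, with an interval of -1.03 to 0.32. On day 4 the PRF1 differences were -0.30 and -0.02, and on day 12 they were -0.40 and 0.06 (limma adjusted p between 0.664 and 0.995). None of the comparisons called PRF1, and the interval on day 7 includes a 2-fold fall as well as no change.

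NKG7, the gene for a membrane protein of cytotoxic granules, had 3 probes that gave 3 different patterns. The third probe measured -3.75, -2.40, -2.80 and -3.39 in control, -4.32, -3.48, -4.12 and -4.52 on day 7 after 6.7 Gy and -1.83, -3.08, -3.77 and -4.69 after 7.4 Gy. Its difference on day 7 after 6.7 Gy was -1.02 (interval -1.96 to -0.08, limma adjusted p = 0.473). The first probe stayed within 4.47 and 5.03 in every irradiated animal measured, with differences from control between -0.32 and -0.05, and 1 array at 6.7 Gy on day 12 gave no value because its spot was marked an outlier, so that group rests on 1 animal there. The second probe measured 1.49, 1.67, 1.38 and 1.60 in control and ran from 0.87 to 1.42 on day 4 after 7.4 Gy, a difference of -0.40 (limma adjusted p = 0.0942). It was higher on day 7 than on day 4 by 0.36 (adjusted p = 0.0290) and on day 12 than on day 4 by 0.41 (adjusted p = 0.0438 in limma), both short of 2-fold. Deviations from the group means correlated at 0.12 between the first and second probe, at -0.23 between the first and the third and at 0.11 between the second and the third over the animals measured, so the probes do not report 1 common quantity.

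**Figure D2:**
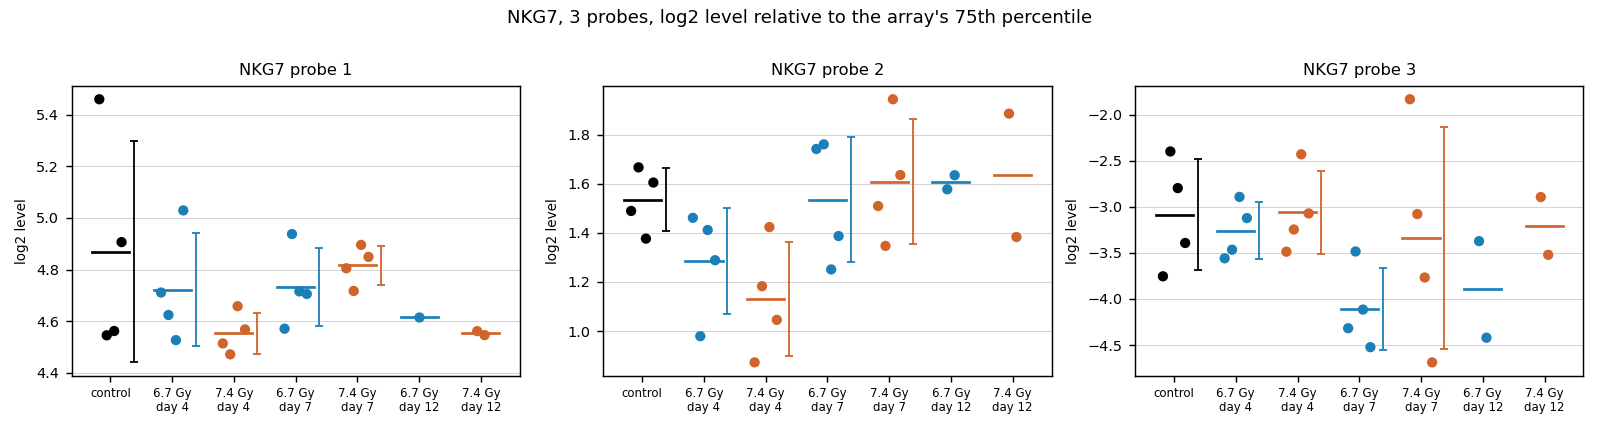
Log2 level relative to the 75th percentile of the array (y axis) by group (x axis) for the 3 probes of NKG7, with 1 dot per animal, a line at the group mean and a bar for the SD in groups of 4. The first 2 probes stay near their control levels on day 7, and the third is lower in the 6.7-Gy group, where it ran from -4.52 to -3.48, and widely spread at 7.4 Gy, from -4.69 to -1.83.

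The 2 probes that match GZMM, granzyme M of NK cells, through a gene number had mean levels of 1.83 ± 0.163 and -2.94 ± 0.235 in control (SD, n = 4). Its differences from control in the 6 groups lay between -0.35 and -0.11, those of the second between -0.22 and 0.18, and none was called.

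CTSW was called on day 4 and, with both doses averaged, on day 7, and GZMK and CST7 were called on day 7. An adjusted p depends on all probes of its comparison, so these calls alone do not order the falls in time. On day 4 none of the 10 probes was called after 6.7 Gy (0 at an unadjusted p under 0.05 in limma), where 1.78% of all probes tested were called lower, and 1 was called after 7.4 Gy, where 3.68% were. On day 7, 2 of the 10 were called lower after 6.7 Gy, where 0.222% of all probes were, and 0 after 7.4 Gy, where 0.259% were and 3 members had an unadjusted p under 0.05. With both doses averaged, 1 of 10 was lower on day 4 (all probes, 3.03%), 3 of 10 on day 7 (0.51%) and 0 on day 12 (0.0288%). The single doses on day 12 called 0 of 10, with 0.0105% and 0.0157% of all probes called lower and 2 and 1 members at an unadjusted p under 0.05 in limma. On day 4 the share of members called was near the background at 7.4 Gy, where 1 probe is the smallest count above 0 that 10 probes can give.

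The difference from control was below 0 for 10 of the 10 probes on day 4 after 6.7 Gy and 9 after 7.4 Gy. The counts were 9 at both doses a week after TBI, and 9 at the lower and 7 at the higher dose on day 12. The median over the 10 probes, lower dose first, was -0.30 and -0.36 at day 4, -0.99 and -0.41 at day 7 and -0.71 and -0.23 at day 12, while the median over all probes tested lay between -0.08 and 0.08 in these comparisons. The count of members whose animals all lay below all controls was 3 of 10 on day 7 after 6.7 Gy (GZMK, CST7 and CTSW), where 3.79% of all probes did, and 1 of 10 after 7.4 Gy (CTSW), where 2.72% did. Over the 8 animals of day 7 it was 1 of 10 (CTSW), against 1.34% of all probes, and over the 4 animals of day 12 it was again 1 of 10 (CTSW), against 2.29%. On day 12, with only 2 animals a group, 2 of 10 members (CTSW and CST7) after 6.7 Gy and 1 of 10 (CTSW) after 7.4 Gy lay below every control, against 5.39% and 8.44% of all probes.

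Between the days themselves, GZMK was the 1 member called lower on day 7 than on day 4 over both doses, a comparison that called 2.06% of all probes lower. Day 12 against day 4 and day 12 against day 7 called 0 of 10 (limma, 1 member at an unadjusted p under 0.05 in each), with 2.68% and 0.0366% of all probes called lower. The comparisons of day 7 with day 4 and of day 12 with day 7 reuse the day-7 animals and are not separate evidence of the day-7 levels.

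**Figure D3:**
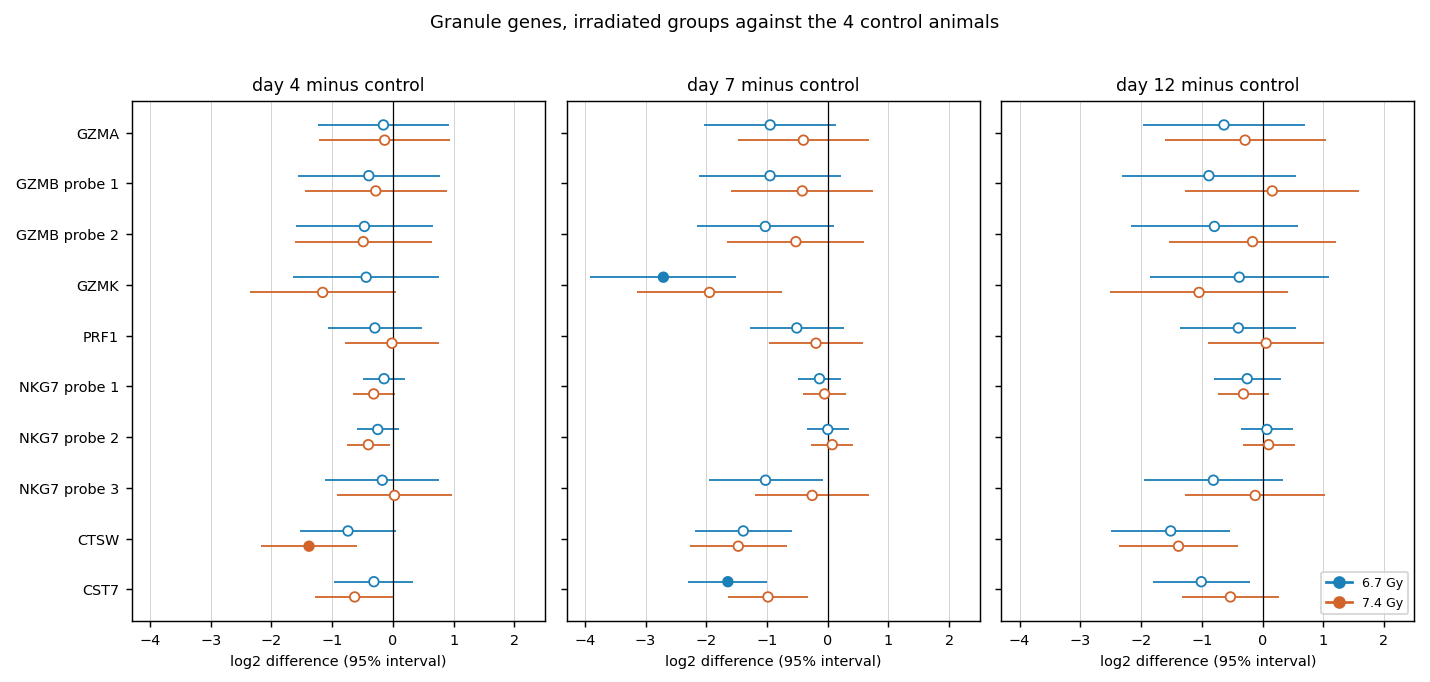
Log2 difference from control (x axis) of the 10 member probes (y axis) on days 4, 7 and 12, with 95% intervals from limma, blue for 6.7 Gy and orange for 7.4 Gy, filled where called. The filled points are CTSW on day 4 at 7.4 Gy and GZMK and CST7 on day 7 at 6.7 Gy, and the intervals of GZMA, GZMB and PRF1 reach 0 on every day.

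The doses were compared directly on each day, and 0 of 10 members were called at 7.4 against 6.7 Gy on days 4, 7 and 12, where 0% of all probes were called either way. On day 7 the 7.4-Gy level of GZMK was higher than the 6.7-Gy level by 0.76 (interval -0.44 to 1.96), that of CST7 by 0.66 (interval 0.01 to 1.31, limma unadjusted p = 0.0472, adjusted p = 1), and CTSW differed by -0.08 (interval -0.88 to 0.71). On day 4 these differences were -0.72 (interval -1.92 to 0.48) for GZMK, -0.32 (interval -0.97 to 0.33) for CST7 and -0.64 (interval -1.44 to 0.16) for CTSW. The change of the dose difference from day 4 to day 7 was 1.48 for GZMK (interval -0.22 to 3.17) and 0.98 for CST7 (interval 0.06 to 1.90), neither of which passed the adjusted test (limma adjusted p = 0.994 for both; 0.00262% of all probes were called either way). The calls at 1 dose and not at the other are thus not shown to differ between doses.

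The animals of 1 group differed from each other, and they did so across several granule genes at once. On day 7 after 6.7 Gy, replicate 2 was the highest of its group on 8 of 9 member probes and lay below every control on 3 of them, against 8, 9 and 8 of 9 for replicates 1, 3 and 4. On day 7 after 7.4 Gy, replicates 1 and 2 lay below every control on 2 and 3 of 9 probes and replicates 3 and 4 on 8 and 8. In that group GZMA, both GZMB probes, PRF1 and the third NKG7 probe were each higher in replicates 1 and 2 than in replicates 3 and 4. The same split separates the arrays on position 3 from those on position 4, and also 2 slides from 2 other slides and the 2 scan sets. The part of these in the difference was not tested. Replicate 3 at 7.4 Gy on day 4 was the highest of its group on 8 of 9 probes.

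**Figure D4:**
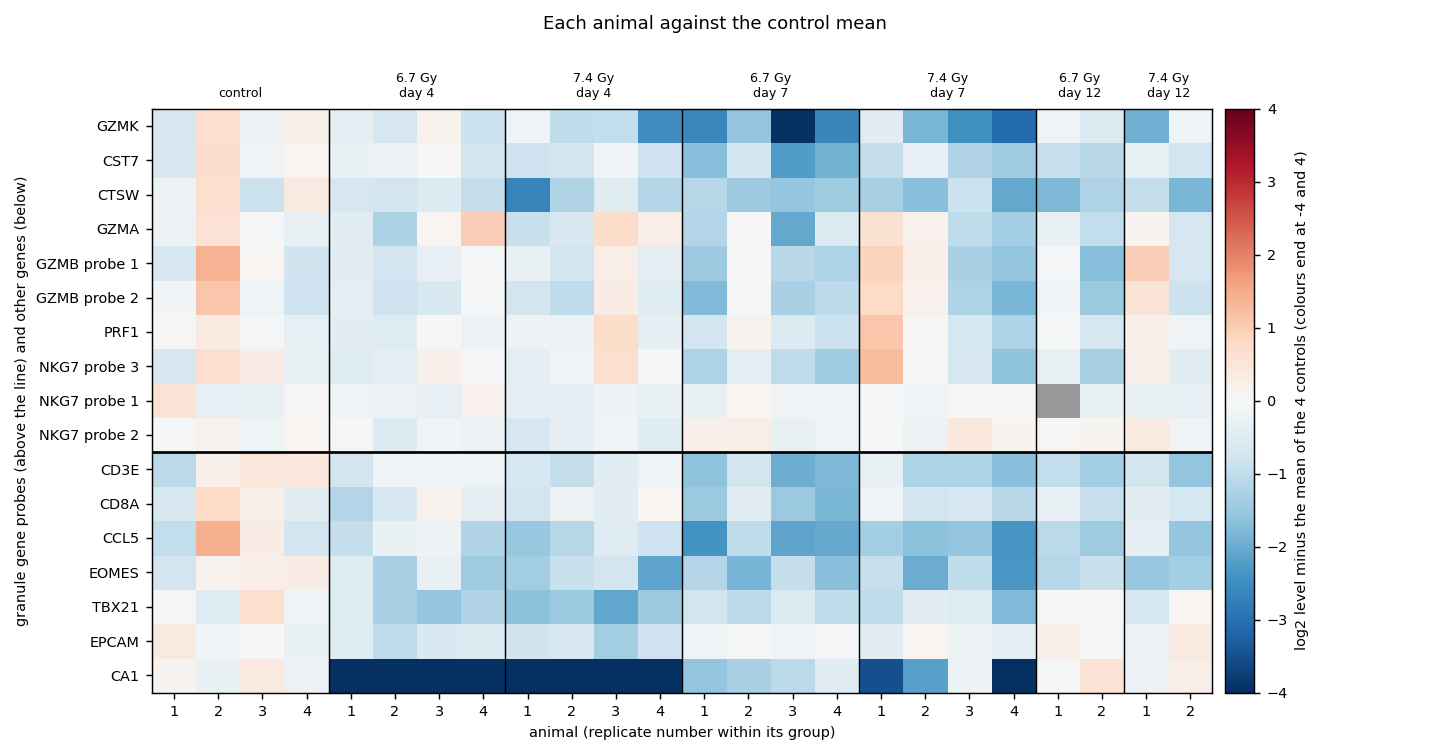
Heat map of each animal's log2 level minus the control mean (colour, ending at -4 and 4) for the 10 member probes above the line and CD3E, CD8A, CCL5, EOMES, TBX21, EPCAM and CA1 below it, with the 24 animals in columns by group and grey for a missing value. The day-7 columns are blue for GZMK, CST7, CTSW, CD3E and CCL5 in most animals, and the epithelial gene CA1 is low on day 4.

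With the group means removed, some member probes correlated more closely than others. Animals share slides across groups, and slide differences are not removed with the group means. Over the 24 animals the correlation was 0.92 between PRF1 and the third NKG7 probe and 0.89 between the first GZMB probe and the third NKG7 probe. It was 0.88 between PRF1 and the second GZMB probe and 0.81 between GZMA and the second GZMB probe. GZMK correlated at 0.58 with PRF1, 0.52 with CST7, 0.51 with the third NKG7 probe, 0.35 with GZMA and -0.06 with CTSW. The second NKG7 probe correlated at 0.67 with CTSW.

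**Figure D5:**
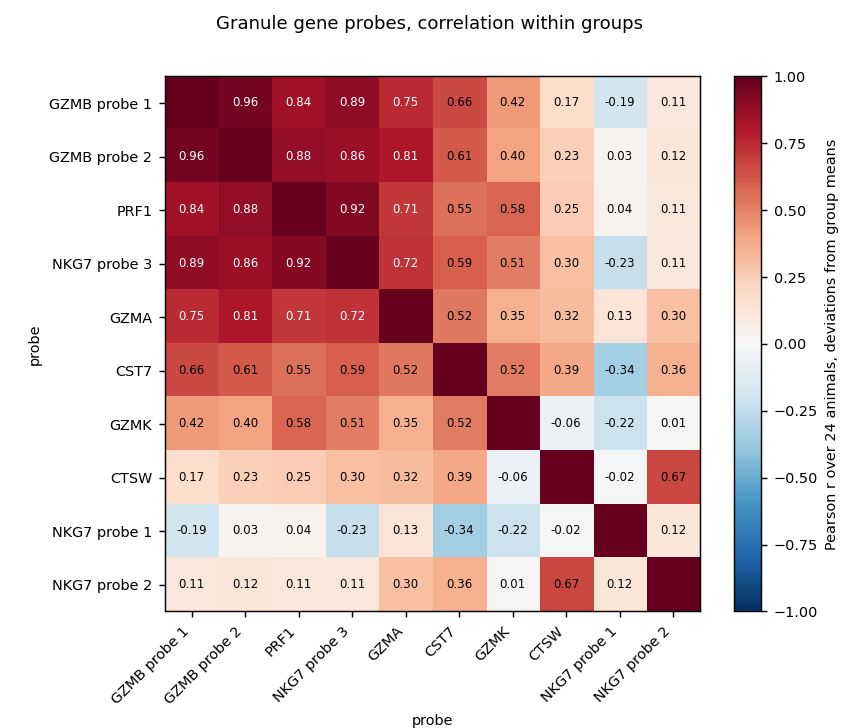
Pearson correlation of the deviations from the group means for each pair of the 10 member probes (both axes), with the colour and number giving r. It is over 24 animals, or over the animals with a value for pairs with the first NKG7 probe. GZMA, both GZMB probes, PRF1 and the third NKG7 probe form the block of high values, up to 0.96 for the GZMB pair.

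Levels of the members were set beside those of lymphocyte markers. Over the 24 animals, whose levels share group and array position, CST7 correlated at 0.80 with CD3E of the T cell receptor complex, GZMK at 0.66 with CD3E, the third NKG7 probe at 0.78 with CD8A and the first GZMB probe at 0.69 with CD8A. Over the 10 member probes the correlations ran from -0.16 to 0.80 with CD3E and from -0.15 to 0.78 with CD8A. The first NKG7 probe, over the animals with a value, and the second NKG7 probe gave the lowest values. With group means removed, GZMK and CD3E correlated at 0.37. The epithelial gene EPCAM correlated with the members between -0.30 and 0.46. Of 13452 named genes outside the set, the 10 whose levels were most like the mean of the 7 members, each by its brightest probe (the first for NKG7 and GZMB), were TRAF3IP3 (r = 0.83), LCP1 (0.80), SH2D1A (0.80), CCL5 (0.77), ABI3, MYO1G, CD3E, CD3G and TBC1D10C (each 0.76) and IKZF3 (0.75), where r is Pearson's over 24 animals.

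Genes that act with the granule proteins were counted list by list. Of the 13 genes for granule loading, release and inhibition, 12 were tested. On day 4 after 7.4 Gy, RAB27A, a small GTPase that docks granules at the membrane, fell by 1.32 on the log2 scale (limma adjusted p = 0.000319), UNC13D, which primes granules for fusion, rose by 1.24 (adjusted p = 0.00561), and SERPINB1, an inhibitor of granule serine proteases that neutrophils also hold, rose by 1.66 (adjusted p = 0.00261). SERPINB1 was also higher after 6.7 Gy on day 4, by 1.35 (limma adjusted p = 0.0192). With array position as a block the RAB27A and UNC13D differences were -0.91 (adjusted p = 0.0941) and 0.78 (adjusted p = 0.368). Without control replicate 1 UNC13D was at 0.95, short of 2-fold, and without control replicate 4 or 6.7-Gy day-4 replicate 2 SERPINB1 after 6.7 Gy was at 1.11 and 1.08 (adjusted p = 0.0657 and 0.0642). On days 7 and 12, none of the 12 was called at either dose. The mean of RAB27A was -0.70 in control, -1.07 and -2.02 on day 4 and -0.70 and -0.48 on day 7, lower dose first. Which cell types gave the signals of RAB27A, UNC13D and SERPINB1 was not tested.

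Of 11 transcription factors of cytotoxic lymphocytes, 9 were tested. TBX21, which drives granzyme and perforin transcription in T and NK cells, fell on day 4 by 1.14 after 6.7 Gy (limma adjusted p = 0.0208) and by 1.67 after 7.4 Gy (adjusted p = 0.000774), and with array position as a block these were -0.88 (adjusted p = 0.144) and -1.17 (adjusted p = 0.160). The TBX21 call after 6.7 Gy was also lost without control replicate 3 (-0.93) or without day-4 replicate 2 or 3 (-1.09 and -0.99). The control mean of TBX21 was 5.69. Its means by day (4, 7, 12) were 4.55, 4.83 and 5.67 at 6.7 Gy, 4.02, 4.76 and 5.38 at 7.4 Gy. The T lymphocyte list described below was instead lowest at day 7 for each dose (mean -2.95 and -2.99, control -1.88). The colon epithelium list was lowest at day 4 (mean 2.96 and 2.43, control 4.28). Which cell type gave the TBX21 signal was not tested. EOMES, its relative in memory CD8 T cells, fell 2.44-fold on day 4 after 7.4 Gy (limma adjusted p = 0.0172), a call lost without control replicate 4 (-1.19) or day-4 replicate 4 (-1.01) and with array position as a block (-1.33, adjusted p = 0.222). With both doses averaged, EOMES was also lower on day 7, at -1.49 (adjusted p = 0.0204), a value named after it was seen, and at -1.44 (adjusted p = 0.0743) without control replicate 2. That call was also lost without control replicate 3 or 4 and with normexp background correction. Over the alternatives the difference shrank to as little as -0.66. The EOMES probe was well above background on 3 of 4 arrays at 7.4 Gy on day 4 and in each day-7 group, so its low levels are near the floor.

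Of the 10 other effector molecules, 9 were tested: TNF rose by 1.20 on day 4 after 7.4 Gy (limma adjusted p = 0.0339). This call was lost without control replicate 1 or 2 or day-4 replicate 1 or 3, at 1.08, 0.98, 1.09 and 0.98, and with array position as a block (1.07, limma adjusted p = 0.348). CCL5, a chemokine stored and released by cytotoxic T cells, was lower on day 7 over both doses, at -1.81 (limma adjusted p = 0.0212), with 4 of its 5 probes called. It too was named after its values were seen, and it was at -1.33 (adjusted p = 0.0891) without control replicate 2 and -1.71 (adjusted p = 0.0783) without control replicate 3. Of the 9 genes of IL2 and IL15 signalling 8 were tested, and IL2RA rose by 2.37 on day 4 after 7.4 Gy on 1 probe (adjusted p = 0.0398) and not on the other (1.38, adjusted p = 0.282). Without control replicate 1 the first of these was at 1.48 (limma adjusted p = 0.146), and with array position as a block at 1.96 (adjusted p = 0.414).

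Markers of the cells that carry the granules were counted in the same comparisons. Of 15 T lymphocyte genes 11 were tested. On day 7 after 6.7 Gy 0 of the 11 were called, and over both doses 4 were called lower, among them CD3E (-1.32), CD3G (-1.17) and SIT1 (-1.30). The median difference of the list, lower dose first, was -0.46 and -0.54 at day 4, -1.16 and -1.06 at day 7 and -0.92 and -0.52 at day 12. The mean level of the list ran from -2.51 to -1.37 in control, from -3.21 to -2.64 on day 7 after 6.7 Gy and from -3.39 to -2.40 after 7.4 Gy. Neither co-receptor tested was called: CD8A was at -0.99 (limma adjusted p = 0.114) and CD4 at -0.64 (adjusted p = 0.0469, under 2-fold) on day 7 over both doses. Of 16 NK cell and intraepithelial lymphocyte genes 12 were tested, and 1, CD96, fell on day 7 after 6.7 Gy by 1.70 (adjusted p = 0.0337). With the doses averaged, CD96 (-1.56), ITGAE (-1.58) and SH2D1B (-1.88) were called lower on day 7, and a second ITGAE probe was at -0.24 (limma adjusted p = 0.891). The 3 called probes were each well above background on 1 of 4 arrays in each day-7 group, so their low levels are near the floor of the measurement. These 3 calls were lost with normexp background correction, and over the alternatives the differences shrank to as little as -0.48, -0.46 and -0.55. KLRD1, a receptor chain of NK cells, was at -1.53 on day 7 over both doses (limma adjusted p = 0.0654). Each of these day-7 calls was lost without control replicate 2, with limma adjusted p between 0.0530 and 0.136. The part of these markers in the fall of GZMK, CST7 and CTSW was not tested.

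Markers of other cell types were called against control on day 4. Of 13 colon epithelium genes 11 were tested, and 6 (CA1, CDX2, KRT20, LGALS4, SLC26A3 and VIL1) fell on day 4 after both doses and 0 on days 7 and 12. After 6.7 Gy the VIL1, LGALS4, SLC26A3 and CDX2 calls were each lost without single animals, among them 6.7-Gy day-4 replicate 2 (-0.81, -0.89, -2.47 and -0.80), and VIL1 was at -0.94 without control replicate 2. The mean level of that list ran from 4.16 to 4.37 in control, from 1.89 to 2.95 on day 4 after 7.4 Gy, beside the CTSW call of that group, and from 4.19 to 4.27 on day 7 after 6.7 Gy, beside the calls of GZMK and CST7. Among neutrophil genes 4 of 9 were tested, and S100A8 rose by 3.61 on day 4 after 7.4 Gy together with S100A9. In that group 2 of the 4 neutrophil genes were below 0. Without 7.4-Gy day-4 replicate 3 the differences of S100A8 and S100A9 were 2.65 and 1.47 (limma adjusted p = 0.113 and 0.0717), and with array position as a block they were 3.50 and 2.51 (adjusted p = 0.316 and 0.195). The S100A8 call was also lost without control replicate 1, 3 or 4, with limma adjusted p of 0.0527, 0.0821 and 0.0522. Single genes, whose calls were each lost without 1 or another animal, were called on day 4 for macrophages (LYZ, higher after 7.4 Gy), mast cells (FCER1A, lower after 6.7 Gy), B lymphocytes (FCRLA, lower after 7.4 Gy) and dividing cells (AURKA, higher after 6.7 Gy). The 7 B lymphocyte genes tested were all below 0 on day 7 over both doses, with a median of -1.29 and 0 called, beside the calls of GZMK, CST7 and CTSW. None of the tested genes for plasma cells (6 of 8) or plasmacytoid dendritic cells (2 of 6) was called against control in the 6 groups, and 5 of the 6 plasma cell genes were below 0 on day 7 over both doses (median -0.68).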

How the data were processed

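RNA from whole colon of 24 animals was labelled with Cy3 and hybridised to Agilent rhesus arrays, 1 array per animal. The authors read the arrays with Agilent's Feature Extraction, and the deposited scanner files hold its background-subtracted processed signal as an intensity, not normalized between arrays. A deposited table of raw intensity matched the scanner files (100% of values to within 0.001 log2), and the deposited log2 table of the authors is the same signal after shifts of each array and each probe (median residual 2.2e-07).

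Control spots were left out, outlier spots, from 24 to 712 on an array, counted as missing values, and replicate spots of a probe were averaged. The value was log2 processed signal minus the array's 75th percentile (549.6 to 962.7 intensity units). Probes well above background on at least 2 arrays entered. Names were the gene symbols of the authors' deposited log2 table. Where that gave only a gene number or no symbol, RefSeq named 3184 and 84 probes, those of GZMM among the first. Group means were estimated in a linear model over 38220 probes and 24 arrays with limma 3.58.1 (R 4.3.3). Two-sided p-values received a Benjamini-Hochberg adjustment over all probes, separately in each of 16 contrasts. Calls needed both an adjusted p under 0.05 and a change of 2-fold or more. Error bars are SD, and intervals are 95%. The number of animals limits the precision. The script was tested on simulated data.

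The genes named are every probe of the listed members, the listed partner and cell type genes called in a group against control or needed to check the label, and the 10 genes most like the mean of the members. Where a listed gene had several probes, the brightest stood for it. The members and lists were chosen with earlier results of these data known. Replicate numbers did not pair animals: the correlation of deviations between animals with the same number had a median of 0.0019 (range -0.228 to 0.236). A listed gene that was called is not reported here. No sequence of the probes was used here.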

Additional observations from a re-analysis of the deposited data

Results flagged for a closer look

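Among 50 groups of member levels that were large enough to test for a single distant animal, 2 held one, and chance alone gives about 1 in 20. PRF1 on day 4 after 7.4 Gy had 1 animal, replicate 3, at 0.11 while the nearest of the others was at -0.82. CST7 in the same group had the same animal at 0.84 while the nearest was at 0.21. Neither difference from control was called in that group.

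GZMK differed between days under the same comparison with control, with a log2 difference of -1.53 from day 4 to day 7 over both doses (limma adjusted p = 0.00982). The other 9 member probes did not pass both thresholds in that comparison.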

How the results depend on the processing

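The number of member probes called was 1 on day 4 after 7.4 Gy, 2 on day 7 after 6.7 Gy, 1 and 3 with both doses averaged on days 4 and 7, and 1 for day 7 against day 4. These counts were equal with the authors' normalized table, with outlier spots kept and with a stricter filter (well above background on every array of a group). With normexp background correction on the median spot signal, the counts for 7.4 Gy day 4, both doses day 4 and day 7 against day 4 were 0, 0 and 0. With quantile normalization and with median scaling both doses on day 4 gave 0 and 0, and with spike-in scaling 6.7 Gy day 7 gave 0 and both doses on day 4 gave 0. With no filter 6.7 Gy day 7 gave 1. With only the groups compared, and also with the methods' t-test (Benjamini-Hochberg adjusted), 7.4 Gy day 4, 6.7 Gy day 7 and both doses on day 4 and day 7 gave 0. With slide as a block 6.7 Gy day 7 gave 0, and with scan day as a block it gave 1. With array position as a block 7.4 Gy day 4 and both doses on day 4 gave 0. The position block could not be fitted for day 7 or day 12 against control or against day 4. Both doses on day 7 gave 2 with normexp, spike-in scaling, slide as a block and the replicate block. With no minimum fold, day 7 against day 4 gave 3 and day 12 against day 4 gave 1. With the replicate block, which the labels do not tie to a pairing of animals, 6.7 Gy day 7 gave 1: GZMK had a limma adjusted p of 0.0521, and CTSW over both doses on day 7 had 0.0617. Leaving out each animal in turn gave 0 to 1 on 7.4 Gy day 4, 0 to 2 on 6.7 Gy day 7, 0 to 1 on 7.4 Gy day 7, 0 to 1 and 0 to 3 for both doses on days 4 and 7, and 1 for day 7 against day 4. The added call on 7.4 Gy day 7 was CTSW without 7.4-Gy day-4 replicate 1 (-1.47, adjusted p = 0.0372 in limma). Without control replicate 2, 0.0628% of all probes were called either way on day 7 after 6.7 Gy and 0.314% over both doses on day 7. No direction reversed in any alternative run. Spike-in scaling moved the median of all probes to between 0.07 and 0.24 in the 6 groups against control, from between -0.08 and 0.08. Day-7 CTSW levels are limited by signal near background, and day-7 GZMK levels are dim.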
